A study of Mus musculus with 3 samples.

Results

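The 10 genes described here encode the enzymes that cut hormone precursors and the proteins of the dense core granules in which hormones are stored. They were fixed by name as *Pcsk1*, *Pcsk2*, *Cpe*, *Chga*, *Chgb*, *Scg2*, *Scg3*, *Scg5*, *Ptprn* and *Ptprn2*, and they are 10 of 22350 protein-coding genes on chromosomes 1 to 19 and X. A region was counted at a gene when it overlapped the annotated gene or lay within 20 kb of any of its transcription start sites (TSS). By this rule 134 of the 65709 H3K4me1 enriched regions lay at the 10 genes. H3K4me1, the monomethylated form of histone 3 lysine 4, is a mark of enhancers and of the flanks of promoters, and a region in this list is a stretch of the genome that was called enriched for it.

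The study asked how inflammatory cytokines change the chromatin and transcription of pancreatic islets. The library examined here came from islets of CD1 mice aged 8 to 12 weeks by the labels. The paper's methods name ICR mice and a narrower range of ages for it. After isolation and a recovery of some hours the islets were kept in RPMI for 4 days with IFNγ at 1.6 ng/ml, TNFα at 0.16 ng/ml and Il-1β at 0.25 ng/ml, and chromatin was precipitated with an anti-H3K4me1 antibody. The islets of several mice were combined and DNA of separate precipitations was pooled, so there was 1 library, no replicate and no error between samples for any value below. The RNA-seq of both conditions and the H3K4me1 regions of untreated islets were not analysed here, and nothing below is a comparison of treated with untreated islets. Whole islets hold β-cells, other endocrine cells and cells of vessels and stroma, and a region can come from any of them. Of the markers of β-cells all 7 had a region at the gene or within 20 kb of a TSS, against 4 of 5 of other endocrine cells, 4 of 4 of acinar cells, 3 of 3 of duct, 2 of 3 of endothelium, 1 of 2 of stroma and 2 of 4 of leukocytes, while 76.4% of all protein-coding genes had one. The median share in regions of the 40 kb around the first TSS was 28.6% for the β-cell markers, against 7.50% over all genes. It was 11.0% for duct, 6.50% for acinar and 0% for leukocyte markers. For the markers of other endocrine cells, endothelium and stroma it was above 0% and below the 7.50% of all genes. *Gcg*, the glucagon gene, had no region, nor had the leukocyte markers *Cd3e* and *Itgam*, the endothelial *Cdh5* and the stromal *Pdgfrb*. The list gives positions only, its depth is unknown, and every edge fell on a 200 bp grid.

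Peptide hormones such as insulin are made as larger precursors, which are sorted into dense core granules and cut there at pairs of basic residues by the prohormone convertases encoded by *Pcsk1* and *Pcsk2*. Carboxypeptidase E then trims the exposed basic residues from the new ends. Chromogranins and secretogranins are acidic proteins that gather in the granule core, and the 2 receptor-type phosphatase family members *Ptprn* and *Ptprn2* span the granule membrane and are autoantigens in type 1 diabetes.

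The promoter sequences of the family are shown first, because at most of these genes the TSS lay between regions and not inside one. The 250 bases before the first annotated TSS of *Pcsk1* and of *Chga* were read from the mm9 reference genome on the strand of the gene (plus for both), at chr13:75227024-75227273 and chr12:103792929-103793178. No base of either sequence lay in an H3K4me1 region. Capitals mark each match to the 5-letter core of the cAMP response element, TGACG on either strand, together with the 3 bases that complete an 8-base element, and in *Chga* also the TATAAA match.
Pcsk1: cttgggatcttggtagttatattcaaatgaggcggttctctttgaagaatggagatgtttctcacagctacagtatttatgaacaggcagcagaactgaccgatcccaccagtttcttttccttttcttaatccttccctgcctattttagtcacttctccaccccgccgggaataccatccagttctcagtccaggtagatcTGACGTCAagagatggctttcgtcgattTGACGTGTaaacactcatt
Chga: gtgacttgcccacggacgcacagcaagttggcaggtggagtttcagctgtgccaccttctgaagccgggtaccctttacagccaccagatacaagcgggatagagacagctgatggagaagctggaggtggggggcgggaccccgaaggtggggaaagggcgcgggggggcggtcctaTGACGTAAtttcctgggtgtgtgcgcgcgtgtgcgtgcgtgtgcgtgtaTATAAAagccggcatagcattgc
*Pcsk1* held TGACGTCA, the whole palindromic element, at 47 to 40 bases before its TSS and a second core at 19 to 15 bases before it. *Chga* held a core at 72 to 68 bases before its TSS and a TATAAA at 23 to 18 bases before it.

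The core TGACG lay within 250 bases before to 50 after the first TSS in 8 of the 10 genes, that is in all but *Chgb* and *Ptprn2*. The same letters lay in 23.3% of the windows of this length at all protein-coding genes. The whole TGACGTCA lay at 2 of the 10, *Pcsk1* and *Scg2*, against 2.33% of all, and each whole element contains a core on both strands. For the 6 other genes with a match, 32 bases around 1 site each are given to show how the bases after the shared core differ, with the 8-base element in capitals.
Scg2: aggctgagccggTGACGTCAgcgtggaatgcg
Pcsk2: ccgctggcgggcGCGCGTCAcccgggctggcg
Cpe: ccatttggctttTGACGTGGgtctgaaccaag
Scg3: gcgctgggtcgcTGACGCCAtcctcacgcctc
Scg5: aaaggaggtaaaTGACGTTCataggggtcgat
Ptprn: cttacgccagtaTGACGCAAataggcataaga
These stretches lay on mm9 at chr1:79436650-79436681 (minus strand), chr2:143371820-143371851 (plus), chr8:67171988-67172019 (minus), chr9:75531874-75531905 (minus), chr2:113669404-113669435 (minus) and chr1:75260881-75260912 (minus). In *Pcsk2* the core is on the opposite strand, so the capitals end and do not begin with it. The *Scg5* element lay wholly in a region and 7 of the 8 bases of the *Cpe* element did, whereas those of *Pcsk1*, *Pcsk2*, *Chga*, *Scg2*, *Scg3* and *Ptprn* lay outside all regions. A match is a description of the letters and not evidence that a factor was bound.

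Other short motifs were searched on both strands of the same windows. GGGCGG, the Sp1 box, lay at 6 of the 10 genes and in 43.5% of all windows, and *Pcsk2* alone held 7 of them, some overlapping. TATAAA lay at 1 of the 10 and in 13.4% of all, and the E-box CANNTG at 9 of the 10 and in 69.6% of all. TGANTCA, the AP-1 site, was not found in the windows of the 10 genes and lay in 6.93% of all. The gamma-activated site TTCNNNGAA, a form bound by STAT proteins, lay at *Scg2* and *Scg5* and in 7.94% of all windows. *Chgb* held an E-box and none of the other motifs searched.

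All 10 genes had at least 1 region, as did 76.4% of protein-coding genes. *Ptprn2*, the longest of the 10 genes, had 67 regions and *Pcsk2* had 22. *Scg5*, which encodes the 7B2 protein that binds and helps to mature the *Pcsk2* product, had 11. *Cpe* had 8, *Scg3* and *Ptprn* had 6 each, *Pcsk1* and *Scg2* had 4 each, and *Chga* and *Chgb* had 3 each. The median was 6 regions, against a median of 2 and a 90th percentile of 7 over all protein-coding genes. When only regions that overlap the gene were counted, the medians were 2.5 for the 10 genes and 1 for all. The order follows the lengths of the genes in part, because the rule searches a longer stretch at a longer gene.

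Set against genes within a factor of 2 of their own length, the counts of *Ptprn2*, *Scg5*, *Ptprn* and *Pcsk2* stood at the 99.2, 98.3, 95.1 and 91.2 percentile. Those of *Scg3*, *Scg2*, *Cpe*, *Pcsk1*, *Chgb* and *Chga* stood between the 62.2 and 86.8 percentile. The length covered was 225.2 kb at *Ptprn2*, 125 kb at *Pcsk2* and 74.6 kb at *Cpe*. It was 29.8 kb at *Scg5*, 25.2 kb at *Ptprn*, 21.6 kb at *Scg3* and 18.8 kb at *Chga*. The lowest values were 13 kb at *Chgb*, 10.4 kb at *Scg2* and 8.4 kb at *Pcsk1*, and the median of the 10 was 23.4 kb against 4.2 kb over all protein-coding genes, or 13.1 against 1.6 kb when only overlap with the gene counted. *Pcsk1* stood at the 70.2 percentile of all genes by covered length and was the least covered of the 10 by this rule. When only overlap with the gene counted, *Chgb* was the least covered with 3.2 kb, *Pcsk1* had 6.6 kb, and *Chga* and *Ptprn* fell to 7 and 11.4 kb.

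The next measure takes the same length of sequence at every gene, and its relation to gene length was not tested. It is the share in regions of the 40 kb window that has the first TSS at its middle. It was 56.5% at *Ptprn2*, 49.2% at *Pcsk2*, 47.0% at both *Chga* and *Scg3*, and 43.5% at *Scg5*. It was 39.0% at *Ptprn*, 36.9% at *Cpe*, 30.0% at *Chgb*, 26.0% at *Scg2* and 12.5% at *Pcsk1*. The median of the 10 was 41.2% and that of all protein-coding genes 7.50%, with an upper quartile of 17.8%. At 7 of the 10 genes the share was at or above 31.2%, the value reached by 10% of all genes, and the 3 below it were *Chgb*, *Scg2* and *Pcsk1*. The convertase genes thus lay at opposite ends of the family, *Pcsk2* near the top and *Pcsk1* last.

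**Figure D1:**
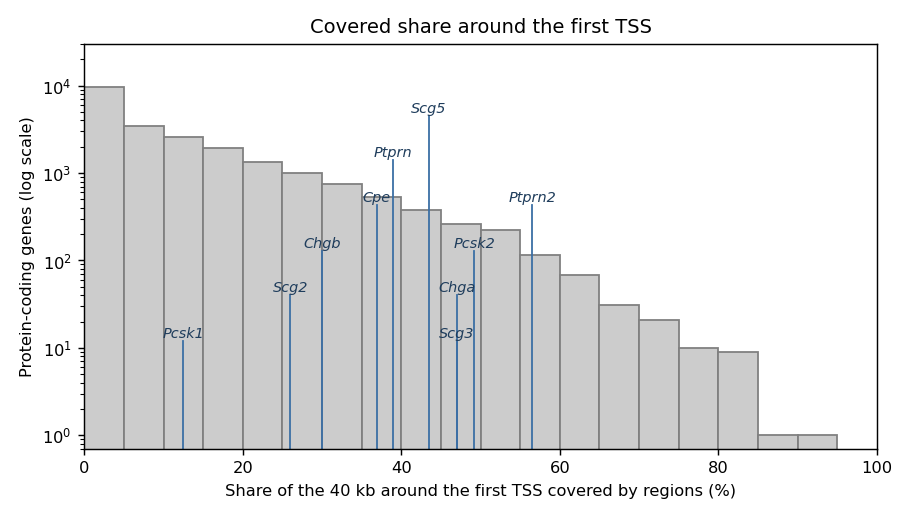
Share of the 40 kb around the first TSS covered by H3K4me1 regions (x axis, %) for 22350 protein-coding genes, as the number of genes on a log scale (grey bars), with the 10 granule genes marked by blue lines whose height has no meaning. *Pcsk1* stood at 12.5% and the other 9 between 26.0% and 56.5%.

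The first TSS lay inside a region at 2 of the 10 genes, *Scg5* and *Ptprn2*, against 31.1% of all protein-coding genes. At the 8 others the first TSS lay in an uncovered gap with a region within 5 kb on both sides, an arrangement found at 13.9% of all protein-coding genes and at 18.7% of the 16663 genes with a region within 20 kb of the first TSS. This arrangement and its 5 kb limit were defined after the values were seen, so the counts describe the 8 genes and test nothing. With regions of at least 1000 bp alone the count was 5, against 7.34% of all genes, because the upstream regions at *Cpe*, *Scg2* and *Ptprn* were of 0.4, 0.6 and 0.8 kb. With a limit of 2 kb only *Ptprn* counted, against 9.90% of all genes, because the downstream region began farther away at the other 7.

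The position of the TSS in the gap was uneven. The distance from the TSS to the upstream region was 136 bp at *Scg2*, 164 bp at *Cpe*, 379 bp at *Chga*, 614 bp at *Chgb*, 618 bp at *Ptprn*, 798 bp at *Scg3*, 892 bp at *Pcsk2* and 1274 bp at *Pcsk1*. The distance to the downstream region was 1583 bp at *Ptprn*, between 2022 and 2265 bp at *Chga*, *Chgb*, *Scg3*, *Cpe* and *Scg2*, 3127 bp at *Pcsk1* and 4509 bp at *Pcsk2*. The downstream side was the longer at 8 of 8, as at 64.5% of the 3108 protein-coding genes with such a gap. Its median was 2220 bp at the 8 genes and 1119.5 bp at all 3108, whereas the upstream medians were 616 and 704 bp.

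The whole gap was 2.2 kb at *Ptprn*, 2.4 kb at each of *Cpe*, *Chga* and *Scg2*, 2.8 kb at *Chgb*, 3 kb at *Scg3*, 4.4 kb at *Pcsk1* and 5.4 kb at *Pcsk2*. Those of the convertase genes were the widest and stood at the 89.3 and 95.0 percentile of all 3108 gaps, while the other 6 stood between the 52.0 and 75.9 percentile. The *Chga* gap ran over chr12:103792801-103795200, between an upstream region of 9.8 kb and a region of 7 kb that took in most of the rest of the gene. The *Pcsk2* gap, chr2:143371001-143376400, also held both annotated TSS of C630020P19Rik, a lincRNA on the opposite strand, of which the closer lies 0.179 kb upstream of that of *Pcsk2* and the other inside *Pcsk2*.

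**Figure D2:**
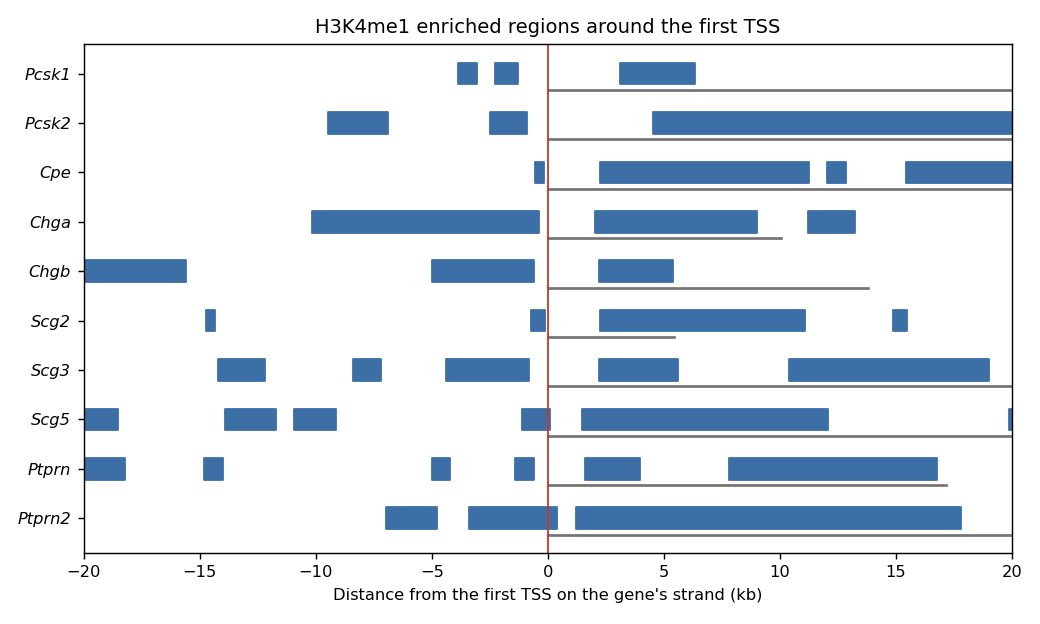
H3K4me1 regions (blue bars) within 20 kb of the first TSS of each gene, drawn on the strand of the gene, with the x axis in kb, the TSS as a red line and the gene as a grey line. Regions lay on both sides of the TSS at all 10 genes, and *Scg5* and *Ptprn2* had one across it.

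At *Scg5* the region over the first TSS, chr2:113669201-113670400, reached only 77 bp into the gene. A second annotated TSS of *Scg5* lay in the gap of 1.4 kb that followed. *Ptprn2* had a region over its TSS, chr12:117720801-117724600, that ended 407 bp inside the gene, and the next began at 1208 bp. Uncovered sequence just inside the gene was therefore common to all 10. Between 0.6 and 1.2 kb downstream of the first TSS none of the 10 genes was covered, whereas 31.2% to 32.5% of all protein-coding genes and 41.9% to 43.6% of those with a region within 20 kb were. Between 3.2 and 3.8 kb downstream 9 of the 10 were covered, against 17.1% to 19.5% of all, and at 1.4 kb upstream 7 of the 10 were, against 16.3%. These positions are the lowest point and the highest points on each side of the line of the 10 genes. The contrasts at them therefore describe the 10 genes and test nothing.

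**Figure D3:**
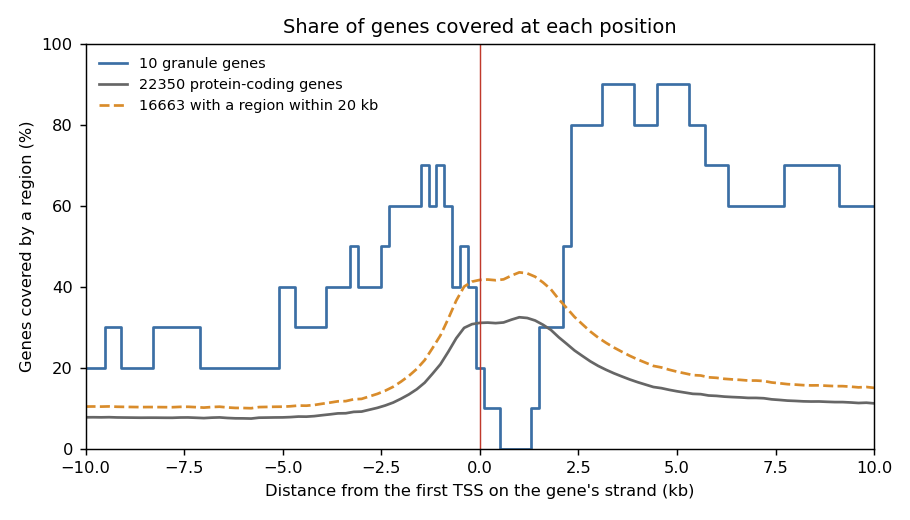
Share of genes covered by a region (y axis, %) at each 200 bp step from 10 kb upstream to 10 kb downstream of the first TSS (x axis), for the 10 granule genes (blue), all 22350 protein-coding genes (grey) and the 16663 of them with a region within 20 kb (orange, dashed). The line of the 10 genes falls to 0 between 0.6 and 1.2 kb downstream, where the other lines are highest, and reaches 9 of 10 at 3.2 kb.

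A gap was more frequent among densely covered genes in general. Of the 2235 protein-coding genes at or above the 90th percentile of covered share around the TSS, 36.7% had a flanked gap and 49.4% had the first TSS in a region. Of the 7 members among them, 5 had a flanked gap (*Pcsk2*, *Cpe*, *Chga*, *Scg3* and *Ptprn*) and 2 had the TSS in a region.

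Gaps also moved with the density of CpG at the promoter, given here as the ratio of observed to expected CpG in the 1 kb around the first TSS. The ratio ran from 0.467 at *Pcsk1* to 0.778 at *Ptprn2*, with a median of 0.623 against 0.549 over all protein-coding genes. When all genes were split by this ratio into 4 groups of equal size, a flanked gap was found at 2.15%, 5.28%, 16.5% and 31.7% of the genes from the lowest to the highest group. The third group held 7 of the 10, all 7 with a flanked gap, the second held *Pcsk1* and *Scg5*, and the highest held *Ptprn2*. In the third group 51.2% of all genes had the first TSS in a region.

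The gap sequences themselves had more CpG than the regions beside them, with ratios of 0.347 to 0.622 in the gaps and 0.142 to 0.289 in the flanking regions, higher in the gap at 8 of 8. Among all 3108 genes with such a gap this was so at 90.1%. There were 0 unknown bases in the 8 gaps. The part of base composition in the gaps was not tested.

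Repressor element 1 (RE1) is the site of REST, a repressor that keeps neuronal and endocrine genes silent in other cell types. It was searched as TTCAGCACC, 2 free bases and GGACAG, on both strands of the 40 kb around each first TSS. An exact match lay at *Chga* and *Chgb*, the 2 chromogranins, and in 0.501% of the windows of all protein-coding genes. Capitals mark the fixed letters.
Chga: TTCAGCACCtcGGACAG
Chgb: TTCAGCACCccGGACAG
Both were in an intron and in the uncovered gap downstream of the TSS. That of *Chga*, chr12:103793448-103793464, began 269 bp downstream of the TSS and lay 648 bp from the nearest region. That of *Chgb*, chr2:132607530-132607546, began 516 bp downstream and lay 1130 bp from a region. With 1 mismatch allowed, *Pcsk2* and *Ptprn* also held a match, which makes 4 of the 10 against 2.39% of all genes, and 2 of their 6 matches lay in a region. With 2 allowed, *Scg2* was added, and 14.9% of all genes held a match.

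The regions reached far into the bodies of these genes. Of the 134 regions, 86 lay in introns with no exon base, 25 touched an exon and 23 lay outside the gene, 21 of these upstream of it. The rule takes in whole genes, and these shares were not worked out for other genes, so the counts describe the 10 genes only. *Ptprn2* with 57 and *Pcsk2* with 18 held most of the regions in introns only, and *Pcsk1*, *Chga*, *Chgb*, *Scg2* and *Ptprn* had 0. Their median width was 2.4 kb against 1.2 kb over all regions. There were 11 wider than 10 kb, or 8.21% of them against 2.01% of all regions. A region of this width lay at 5 of the 10 genes (*Pcsk2*, *Cpe*, *Scg5*, *Ptprn* and *Ptprn2*), against 6.94% of all protein-coding genes. At *Ptprn* the only such region was closer to *Resp18*, and the count is 4 without it. The 6.94% is over genes of all lengths, and a longer gene is searched over more sequence. Median gene length was 41.7 kb for the 10 and 15.4 kb over all protein-coding genes. The widest region, 27.8 kb in an intron of *Pcsk2* at chr2:143459801-143487600, ranked 83 by width among the 65709 regions.

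*Cpe* was the most fully covered. Regions held 73.8% of its 100.5 kb, at the 99.5 percentile of the 3875 genes within a factor of 2 of its length. From 2.24 to 81.8 kb downstream of the TSS, 6 regions covered 72.8 of 79.6 kb, or 91.5%, among them regions of 26, 18.2 and 13.4 kb. The last stretch of the gene was sparser, with 32.9% covered between 75 and 100 kb from the TSS. The region of 26 kb, chr8:67090001-67116000, held coding exons and the regions of 18.2 and 13.4 kb held introns only.

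*Pcsk2*, which spans 270.1 kb, was covered over 44.7% of its length, at the 97.8 percentile of 1456 genes of like length. In successive 50 kb from its TSS the covered share was 66.2%, 74.4%, 54.2%, 25.6% and 19.8%, and 3.52% in the short remainder. Its regions thus lay mostly in the front of the gene, and 6 in the rear were closer to the TSS of *Bfsp1*, a lens filament gene, than to that of *Pcsk2*. Gm12360, a processed transcript annotated inside *Pcsk2* on the opposite strand, had 3 regions over it.

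*Ptprn2* spans 792 kb and was covered over 27.7% of it, at the 96.3 percentile of the 314 genes of like length. In successive 100 kb the covered share was 58.8%, 46.8%, 23.6%, 17.8%, 25.2%, 15.2%, 21.6% and 11.5%. It had 57 regions in introns only and 9 that touched an exon, and 18 of the 67 were closer to the TSS of another coding gene. The miRNA gene Mir153 lies in *Ptprn2* 765 kb from its TSS, with no region over it and the nearest 23.5 kb away. A U6 gene 8.72 kb from the *Ptprn2* TSS had no region over it either. In these 3 genes and in *Scg5* the front held more than the rear. The part of the gene before its midpoint held 77.3% of the covered bases in *Pcsk2*, 70.6% in *Scg5*, 66.9% in *Ptprn2* and 57.1% in *Cpe*, against a median of 68.7% over 3058 genes of at least 50 kb with at least 4 regions.

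**Figure D4:**
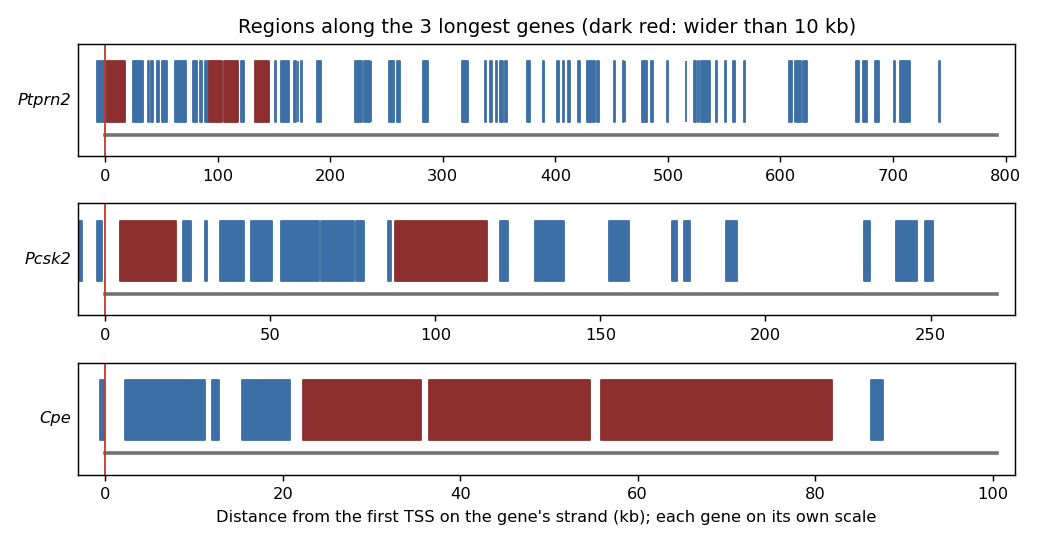
H3K4me1 regions (blue bars, dark red where wider than 10 kb) along *Ptprn2*, *Pcsk2* and *Cpe*, with the distance from the first TSS in kb on the x axis and each gene on its own scale. *Cpe* was covered over 73.8% of its length, *Pcsk2* over 44.7% and *Ptprn2* over 27.7%.

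Of the shorter genes, *Ptprn* was covered over 66.4% of its 17.2 kb and *Chga* over 69.6% of its 10.1 kb, at the 97.7 and 96.6 percentile of genes of like length. *Scg2*, a secretogranin gene of 5.42 kb, was covered over 58.2% by 1 region of 8.8 kb, chr1:79425601-79434400, which held coding sequence and ran on past the end of the gene. *Scg5* was covered over 42.6% of 52.8 kb, with a region of 10.6 kb that began 1478 bp downstream of the TSS. *Scg3*, whose product binds chromogranin A and helps to bring it to the granule membrane, was covered over 36.3% of 40.7 kb and had 3 regions upstream. *Chgb* was covered over 23.2% of 13.8 kb and *Pcsk1* over 15.5% of 42.7 kb, at the 76.2 and 72.8 percentile of genes of like length. The 2 regions in *Pcsk1* were of 3.2 and 3.4 kb and both touched coding exons.

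Some regions counted here can belong to neighbours. At *Ptprn* the widest region, 11.4 kb at chr1:75279001-75290400, began 18.2 kb upstream and was closer to *Resp18*, itself a gene of a granule protein, whose TSS lies 14.1 kb from that of *Ptprn*. At *Scg5* the 3 farthest upstream regions were closest to *Arhgap11a*, and 2 near its 3′ end were closest to *Grem1*. For 103 of the 134 regions the closest TSS of a coding gene was that of the member itself. At *Pcsk1*, *Cpe*, *Chga*, *Chgb*, *Scg2* and *Scg3* this was so of every region. No 2 of the 10 genes were near enough to share a region: the closest on 1 chromosome were *Scg2* and *Ptprn*, 4.18 Mb apart.

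The other genes of the pathway were described from lists of related enzymes and granule proteins. Of 18 such genes, 16 had a region and 9 had the first TSS in one, 3 had a flanked gap, against 76.4%, 31.1% and 13.9% of all protein-coding genes, and the medians were 5 regions, 11 kb covered and 11.7% of the 40 kb around the TSS. *Cpz* and *Cpxm1*, 2 of the 7 relatives of *Cpe*, had no region. The 5 furin-like convertases, which cut precursors in the constitutive pathway, all had a region, with a median of 11 kb covered. *Pam*, the gene of the enzyme that amidates peptide ends, had the most covered length of the 18. It had 32 regions and 71.8 kb at a gene of 300.5 kb. Its share of the 40 kb around the first TSS was 14.4%, while the highest among the 18 was 44.5%. The first TSS of *Pam* also lay in a gap, 178 bp from the upstream and 4423 bp from the downstream region. *Pcsk6*, a convertase gene of 188.2 kb, came next by covered length with 13 regions and 24.4 kb. By group, 2 of 5 furin-like convertases, 4 of 7 relatives of *Cpe*, 1 of 3 genes of peptide amidation and glutamine cyclization and 2 of 3 other granule genes had the first TSS in a region. *Vgf*, a granin-like precursor gene of 3.06 kb, was covered over its whole length.

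Of the 19 other receptor-type tyrosine phosphatase genes 17 had a region, *Ptprh* and *Ptprq* being without, 11 had the first TSS in one and 1 had a flanked gap, against the same 76.4%, 31.1% and 13.9% of all genes. The most covered were *Ptprj* with 82 kb and *Ptprf* with 54.4 kb, which are 51.6% and 58.9% covered over their length. Their median share of the 40 kb around the TSS was 5.50%, against 39.0% for *Ptprn* and 56.5% for *Ptprn2*. *Ptprf* with 60.0% stood above both and *Ptprj* with 49.5% above *Ptprn*, so a high share was not particular to the granule members of the family. *Ptprg* and *Ptprm*, of 688.5 and 687.6 kb, are the family members closest to *Ptprn2* in length. They had 25 and 24 regions and were covered over 5.69% and 3.43% of their length, against 67 regions and 27.7% for *Ptprn2*. *Ptprt*, longer still, had 23 regions over 2.62% of its length. *Vgf*, *Ptprg*, *Ptprm* and *Ptprt* were singled out after their values were seen. A region list holds no measure of height and gives 1 state of the islets, so these shares are lengths of called sequence and not levels of the mark or of expression.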

How the data were processed

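H3K4me1 ChIP-seq was examined for 1 pooled library of cytokine treated islets. Reads were aligned by the authors to mm9 using Bowtie2 (2.2.1 per the submitters' processing notes), who called enriched regions with ChromHMM, whose version is not given in the sources used here. The deposited list holds positions only, with no count, height or score, and the sources do not say whether it precedes the authors' filter on weakly enriched regions. Depth is therefore unknown, and calling on 200 bp bins sets the precision of each edge.

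Here, 1 was added to each start. Genes and TSS were from GENCODE M1 and sequence was from the NCBI37 genome, both of the same build. The first TSS was the most 5′ one, positions in motif windows were counted from it as 0, and percentiles were taken among 22350 protein-coding genes. No p-value was computed, since there was 1 library. Python 3.11.15 with numpy 2.4.6, pandas 2.3.3 and pysam 0.24.0 was used. The counting of regions and covered bases, the nearest distances and the merging of regions were tested on simulated regions, and the other steps were not. The members and gene lists were chosen with earlier results of these data known. All members are named, as are genes with no region in the other lists, the 2 pathway or phosphatase genes with the most covered length and neighbours within 20 kb, with exceptions stated beside them. Alternatives were other distances, minimum widths, merging of regions and other overlap rules, and for the flanked gap its limit, which was chosen after seeing the data.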

Additional observations from a re-analysis of the deposited data

How the results depend on the processing

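Across 7 summary results and their 49 alternatives, 45 values stayed within 1.5 times of the value given and 4 did not. Some alternatives had little room to move a value. Taking the first TSS only, or only TSS of protein-coding transcripts, left every value tried unchanged, and every gene kept a region in all settings. Counting only regions that overlap the gene lowered the median to 2.5 regions and 13.1 kb covered. Among alternatives added after the data were seen, the number of genes with a flanked gap fell from 8 to 5 with regions of at least 1000 bp (7.34% of all genes) and to 1 with a limit of 2 kb (9.90% of all), by construction, since small upstream regions or downstream regions farther away no longer count. It was 8 when regions under 400 bp were dropped, when gaps up to 1000 bp were closed and with a limit of 10 kb. Of 180 alternatives for single genes, 23 moved, chiefly at *Chga*, *Chgb*, *Scg2* and *Ptprn*. Within 50 kb of a TSS, *Chga* had 11 regions, *Scg2* had 9 and *Chgb* had 7, with 31.2 kb covered at *Chgb*. With regions of at least 1000 bp, *Scg2* kept 1 region and *Ptprn* kept 3. When at least 50% of a region had to lie inside the searched stretch, *Ptprn* lost its widest region and kept 13.8 kb. With 1 pooled library and unknown depth, an uncovered stretch can be unmarked or below the calling threshold. No paired analysis was possible because there was 1 library, and no replicate could be left out.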
